A study of Mus musculus with 6 samples.

Results

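Control heart and control whole blood were compared as the main pair, being 2 of the 6 arrays of the series. Both RNA samples came from male C57BL/6J mice injected with saline, the control arm of a study of heart failure (HF). The HF mice received isoproterenol subcutaneously at 40 mg/kg/day for 1 week. For each group and tissue the RNA of 5 mice was, by the methods for the arrays, mixed and hybridised to 1 array, although the extraction methods describe larger pools for blood and plasma, so each value below is that of a pool, and the spread between mice was not measured. No test or p-value is given, and the errors printed are those the scanner software assigns to a spot, combined for both arrays. Hearts were rinsed in buffer before extraction, and blood was drawn by removal of the eye. The array carries probes for mRNAs and for long noncoding RNAs (LncRNAs, long transcripts that code for no protein), and the question addressed is how the transcriptomes of tissue and circulation differ in control mice.

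The bulk of the heart wall is made of cardiomyocytes, which pack actin, myosin, troponin and tropomyosin into sarcomeres, cycle calcium through the sarcoplasmic reticulum to trigger each beat and draw their ATP mainly from the oxidation of fatty acids in abundant mitochondria. Endothelial cells, fibroblasts, pericytes and smooth muscle cells share the tissue, and blood remains in its vessels. Most cells of whole blood are red cells, which have no nucleus but keep globin and haem-synthesis mRNAs while young (reticulocytes), beside platelets, neutrophils, monocytes and lymphocytes. In such bulk samples, fewer cells of a type and less RNA per cell cannot be told apart.

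Levels are log2 values of the spot signal after quantile normalization over the 6 arrays, a step that gives every array the same distribution, so that a value is relative to the other probes of its array. A probe was called detected where the scanner software set it well above background and flagged no outlier. Of 59729 probes, 28239 (47.3%) were detected in control heart and 14922 (25.0%) in control whole blood, the highest and the lowest number among the 6 arrays. The dimmest detected probe lay at a level of 3.56 in control heart and 5.78 in control whole blood, and 30411 spots of the blood array shared its lowest value, at a level of 2.73, so that values there have no order. A probe detected on both arrays has a ratio. For a probe detected on only 1 of them, the ratio is a bound taken against the detection floor of the other, and a bound toward heart or blood was counted when it reached 2-fold. The arrays lay on different slides, control heart with the 3 HF samples and control whole blood with control plasma, so slide and tissue cannot be told apart in this pair. The control whole blood and control plasma arrays were close to each other (Pearson r = 0.95 over 4093 mRNA probes, with 5.52% of the 2535 probes detected on both differing by at least 2-fold), against r = 0.92 and 28.7% of 3019 probes for control heart with HF heart, and r = 0.48 and 73.9% of 2605 probes for control heart with control whole blood.

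The markers of heart muscle stood on the heart side. Actc1, the cardiac actin, had a level of 15.73 in control heart and was not detected in control whole blood (5.64), which makes it at least 989-fold higher in heart. Tnni3, the cardiac inhibitory troponin, had levels of 14.84 and 2.73, a difference of at least 534-fold. Atp2a2, the calcium pump of the sarcoplasmic reticulum, was measured by 2 probes. The probe for the transcript NM_001110140 was detected on both arrays, at 13.89 in heart and 6.70 in blood, a difference of 7.19 ± 0.26 log2 (146-fold). The probe for NM_009722 was at 16.57 in heart and not detected in blood (2.73), at least 1772-fold higher in heart. All 3 muscle genes were thus high on the array labelled heart, and the defining markers Actc1 and Tnni3 were not detected on the array labelled whole blood.

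The red cell marker Hba-a1, an alpha globin, was bright on both arrays, at 16.70 in control heart and 17.58 in control whole blood. The difference of −0.88 ± 0.20 log2 did not reach 2-fold. Its signal before normalization was 128284 in heart and 585181 in blood, which ranked 39th and 4th of all probes, and quantile normalization assigns close values to probes at the top of both arrays. With each array scaled to its 75th percentile instead, the same gene was 9.73-fold higher in blood (−3.28 log2). The alpha globin copies Hba-a1 and Hba-a2 are near identical in sequence, as are the beta globin copies Hbb-b1 and Beta-s, so a signal cannot be given to a single copy with certainty.

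Across the mRNA probes, more were higher in blood than in heart. Of 3984 probes that could be compared, 861 were at least 2-fold higher in control heart, 21.6%, and 1480 in control whole blood, 37.1%. Counted by gene, with the usable probe of highest mean level for each, 777 of 3371 genes (23.0%) were higher in heart and 1261 (37.4%) in blood, and the median difference was −0.94 log2 with bounds included, also those too small to give a direction. Over all probes of the array the shares were 21.2% and 29.2% of 29443. The mRNA probes analysed are those held of the study's list of protein-coding probes, which had already been selected for presence (98.2% of them were detected in control heart), so their detected share is not a result. The lean toward blood depended on the detection floor and on the background correction. With the higher floor of the blood array applied to both, 861 mRNA probes were higher in heart and 1230 in blood, and over all probes the counts were 6240 and 6401. With normexp background correction, 780 mRNA probes were higher in heart and 1056 in blood, so these still leaned toward blood. Over all probes the counts with that correction were 6031 in heart and 5783 in blood. At a 16-fold threshold, 212 mRNA probes were higher in heart and 202 in blood. The counts of each gene group below are to be read against the shares over all genes. The group medians below include bounds in the same way, so a bound without a direction can lower them. Over all genes detected on both arrays the median was −1.32 log2.

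**Figure D1:**
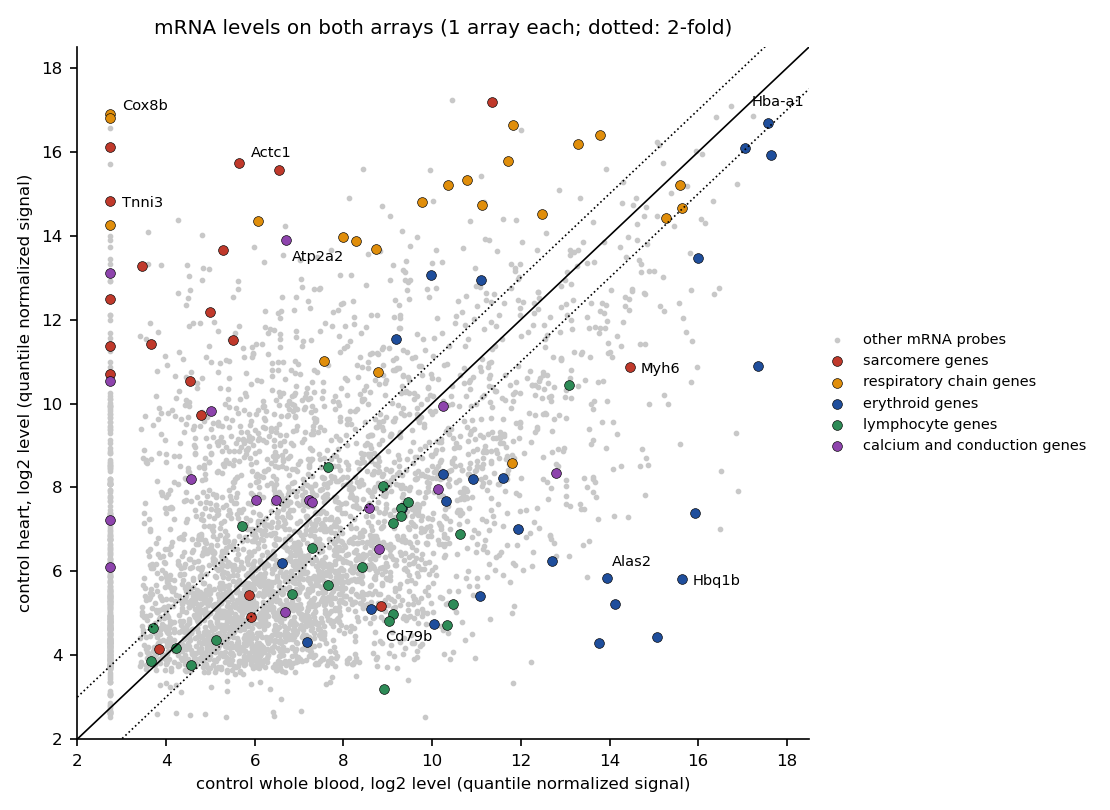
Log2 level of each mRNA probe in control whole blood (horizontal axis) and in control heart (vertical axis), 1 array each, with 1 probe for each gene of 5 groups in colour, the solid line at equal level and dotted lines at 2-fold. Sarcomere and respiratory chain genes lie mostly above the lines, erythroid genes mostly below, Hba-a1 sits at the top right between them at 16.70 and 17.58, and the column at 2.73 holds probes at the lowest value of the blood array.

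Genes of the sarcomere lay mostly on the heart side. Of 20 genes held, 15 (75%) were higher in control heart and 3 in blood, with a median of 5.69 log2 including bounds, against −0.94 over all genes, and 14 of the 15 were at least 16-fold higher. All 20 were detected in heart, at levels of 4.15 to 17.19, and 6 in blood. Tnnc1, the calcium-binding troponin, had levels of 16.11 and 2.73 (at least 1290-fold). Acta1, the skeletal actin that heart muscle also uses, was detected on both arrays at 15.57 and 6.55, a difference of 9.02 ± 0.27 log2 (519-fold). Tnnt2, the tropomyosin-binding troponin, was represented by 9 probes, all higher in heart, the brightest by at least 238-fold. Fhl2, a LIM protein of the sarcomere (at least 179.7-fold), Flnc, which encodes filamin C (at least 105-fold), and Des, which encodes the intermediate filament desmin (at least 48.2-fold), lay on the same side.

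Myh6, Mylk4 and Speg were the 3 sarcomere genes higher in blood. Myh6, the alpha myosin heavy chain that drives the adult mouse ventricle, had a level of 10.88 in control heart and 14.47 in control whole blood, −3.60 ± 0.20 log2 (12.1-fold). The same probe gave 10.68 for HF heart, 14.71 for HF whole blood and, for plasma, 14.36 (control) and 14.38 (HF). Both hearts were thus lower than all 4 blood and plasma arrays for this probe, as they were for Speg and Tnni1 of the same list, and the probe's sequence was not used here to check what it binds. Mylk4, a kinase of the myosin light chain kinase family, was at 5.18 and 8.85 (−3.67 ± 0.23). The Mylk4 probe was undetected on the remaining arrays, reading 3.83 (HF whole blood), 2.51 (control plasma), 2.65 (HF plasma) and 4.47 (HF heart). The blood side of Mylk4 therefore rests on the control whole blood array alone. Speg read 4.91 and 5.92 (−1.0 ± 0.35 log2, 2.01-fold), at the threshold and near the blood floor of 5.78. With that floor applied to both arrays, 2 sarcomere genes were higher in blood. Tpm1, which encodes alpha tropomyosin, was read by 7 probes designed to different transcripts. Those for NM_001164248, NM_001164251 and NM_001164254 were higher in heart by 5.84, 6.79 and 7.13 log2 at heart levels of 15.58 to 17.24, and those for NM_001164250, NM_001164253 and NM_001164255 were higher in blood by 4.91, 4.43 and 2.62 log2 at heart levels of 4.48 to 4.93. The probes of this gene therefore lay on both sides, by transcript.

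Many genes of striated muscle carry in their promoter a CArG box, the site of serum response factor. Promoter windows of 250 bases before to 50 after the start (RefSeq, build GRCm38.p6) were held for 19 of the 20 sarcomere genes, and 5 of the 19 (26.3%) held a CArG box by its usual consensus, which reads the same on both strands, against 488 of 27025 genes (1.81%). All 5 were among the genes higher in heart, as were 14 of the 19 genes with a window. Over all mRNA genes with a window, 2.96% of 540 higher in heart and 2.19% of 913 higher in blood held the box. The motif was thus not read as a trait of the heart side. The 5 matches are shown in 100 bases around the CArG box, which is in capitals. The windows lie at chr2:114052876-114052975 (minus strand) for Actc1, chr8:123894794-123894893 (minus) for Acta1, chr1:43196803-43196902 (minus) for Fhl2, chr14:34588682-34588781 (minus) for Ldb3 and chr17:71019413-71019512 (plus) for Myom1, and the box begins 47, 73, 96, 35 and 99 bases before the start. A match is a description of these letters and not evidence of a bound site.
Actc1: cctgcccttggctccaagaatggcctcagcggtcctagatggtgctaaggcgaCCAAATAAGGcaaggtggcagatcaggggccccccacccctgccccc
Acta1: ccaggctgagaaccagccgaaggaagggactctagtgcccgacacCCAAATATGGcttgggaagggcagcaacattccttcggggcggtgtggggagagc
Fhl2: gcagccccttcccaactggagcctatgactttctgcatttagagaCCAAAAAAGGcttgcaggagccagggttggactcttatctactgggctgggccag
Ldb3: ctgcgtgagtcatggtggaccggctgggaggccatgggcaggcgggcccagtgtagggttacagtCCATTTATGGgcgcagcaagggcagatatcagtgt
Myom1: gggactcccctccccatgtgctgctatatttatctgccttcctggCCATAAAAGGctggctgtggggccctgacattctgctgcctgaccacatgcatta
In control heart and control whole blood, Ldb3 (a PDZ and LIM protein of the Z disc) read 11.51 and 5.50, at least 53.3-fold higher in heart, and Myom1 (the M-line protein myomesin) 9.73 and 4.79, at least 15.5-fold.

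Genes of calcium handling and conduction were divided. Of 16 compared, 8 were higher in heart and 4 in blood, with a median of 0.84 log2. Beside Atp2a2, Cav3, the muscle caveolin, was at 13.11 and 2.73 (at least 162-fold), Popdc2, a cAMP-binding membrane protein of muscle, at least 27.0-fold and Hspb6, a small heat shock protein of muscle, at least 16.6-fold higher in heart. Gja1, which encodes connexin 43 of the working myocardium, was 3.19-fold higher in heart (7.71 and 6.04). On the other side lay the T-type calcium channel gene Cacna1g (6.54 and 8.80) and the potassium channel gene Kcnj3 (7.97 and 10.13), 4.8- and 4.46-fold higher in blood. The small differences of Kcnd3 (−0.31 ± 0.20) and Camk2g (a bound of 0.33) did not reach 2-fold.

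Both cardiac natriuretic peptides, hormones that heart muscle secretes on stretch, were found on the heart array alone. Nppa had levels of 13.91 and 2.73 (at least 281-fold) and Nppb 13.33 and 3.59 (at least 187-fold). Npr1, the receptor of both peptides, was at least 43.9-fold higher in heart. Corin, the protease that cleaves the Nppa precursor, read 9.09 and 9.58, and the clearance receptor gene Npr3 5.34 and 5.90, both within 2-fold.

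Among 11 transcription factor genes of heart muscle, 5 were higher in heart and 4 in blood. Nkx2-5, a homeobox factor that defines the cardiac lineage, was at 14.02 and 4.81 (at least 303-fold). Esrra, a nuclear receptor that governs oxidative metabolism, was at 12.79 and 7.07, a difference of 52.7-fold. The GATA factors of heart, Gata6 (12.82 and 8.50) and Gata4 (12.45 and 8.22), were 4.32 and 4.23 log2 higher in heart. Rbm24, an RNA-binding splicing regulator of muscle kept in this group, read 7.91 and 10.78 and was the furthest toward blood (7.33-fold). Hand1 (6.78 and 6.55) and Meis1 (5.22, not detected in blood, with a bound of −0.56 that gives no direction) showed no difference of 2-fold.

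The machinery of energy supply made up the other large block on the heart side. Of 16 genes of fatty acid uptake and oxidation, 12 (75%) were higher in heart and 3 in blood, with a median of 3.71 log2. Fabp3, the fatty acid-binding protein of heart, was among the brightest probes of the heart array at 16.79 and was not detected in blood (2.73), at least 2067-fold higher in heart. Lpl, the lipase that frees fatty acids from lipoproteins, was at 15.72 and 2.73 (at least 982-fold). Acadl and Acadm, the long- and medium-chain acyl-CoA dehydrogenases, were 60.5-fold and at least 39.0-fold higher in heart, while Acads, the short-chain enzyme, was 5.36-fold higher in blood (7.80 and 10.23). Slc27a6, a fatty acid transporter of heart, read 6.26 and 9.19 and was 7.64-fold higher in blood.

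Respiratory chain and ATP synthase genes were higher in heart in 16 of 20 cases (80.0%) and in blood in 1, with a median of 4.68 log2. The 3 largest bounds belonged to the muscle isoforms of cytochrome c oxidase subunits, with Cox8b at 16.91 and 2.73 (at least 2248-fold), Cox6a2 at 16.80 and 2.73 (at least 2082-fold) and Cox7a1 at 14.26 and 2.73 (at least 358-fold). Of the isoforms of these subunits used in most other tissues, Cox8a read 15.21 and 15.58 (−0.37 ± 0.20) and Cox6a1 14.43 and 15.28 (−0.85 ± 0.20), near the top of the arrays where quantile normalization draws values together. Cox7a2, with outlier flags, read 14.52 and 12.48. Slc25a4, the ADP/ATP carrier of muscle, was 310.0-fold higher in heart (14.36 and 6.08), and Slc25a5, the carrier of other tissues, 48.4-fold. Ndufs1, a complex I subunit, lay on the blood side at 8.59 and 11.80 (9.25-fold). With 75th percentile scaling 4 genes of the list were higher in blood, among them Atpif1, which encodes the inhibitor of the ATP synthase (−0.98 log2 after quantile normalization, −2.11 with that scaling).

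All 13 comparable genes of muscle energy metabolism (creatine kinase, oxygen store, glycolysis and the malate and tricarboxylate cycles) were higher in heart, with a median of 5.63 log2. Got1 and Mdh1, the cytosolic enzymes of the malate-aspartate shuttle, were at least 299-fold and 189-fold higher. Ldhb, the heart form of lactate dehydrogenase, was at least 141-fold higher (12.91 and 2.73), and Mb, the oxygen store myoglobin, at least 94.6-fold (12.34 and 4.44). The smallest differences were those of Slc16a1, a lactate transporter (at least 10.1-fold), and Adssl1, a purine nucleotide enzyme of muscle (at least 15.0-fold). Pfkm, held in the list but left out for outlier spots, read 12.61 and 14.81.

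Red cell genes were the counterpart on the blood side. Of 22 comparable genes, 16 (72.7%) were higher in blood and 3 in heart, with a median of −2.68 log2, and 7 were at least 16-fold higher in blood. All 26 genes held were above background on both arrays, and their levels ran from 4.29 to 16.70 in heart and from 6.61 to 17.64 in blood. Hbq1b, a theta globin, was at 5.82 and 15.64, a difference of −9.81 ± 0.21 log2 (901-fold), and Car2, a carbonic anhydrase of red cells, at 5.21 and 14.12 (480.4-fold). Alas2, the red cell enzyme that starts haem synthesis, was read by 2 probes, at 5.84 and 13.95 (277-fold) and at 3.83 and 12.24 (339-fold). Bnip3l, which clears mitochondria from maturing red cells, reached 17.35 in blood against 10.90 in heart (87.7-fold).

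The regulators Gata1, Nfe2 and Gfi1b were 10.4-, 6.60- and 6.24-fold higher in blood, at blood levels of 10.31 to 11.60. Of the other haem enzymes, Urod was 3.80-fold higher in blood, and Alad, which acts in all cells that make haem, was 8.51-fold higher in heart (13.07 and 9.98). Gypc, which encodes glycophorin C (2.36 ± 0.17 log2), and Selenbp1, a selenium-binding protein (1.84 ± 0.20), were the other 2 on the heart side. Beta-s (16.10 and 17.06) and Lyl1, a basic helix-loop-helix factor (6.19 and 6.61), lay within 2-fold. The remaining globin probes, Hbb-b1 (15.92 and 17.64) and Hba-a2 (13.48 in heart), were 3.30- and 5.74-fold higher in blood, and after 75th percentile scaling 14.8- and 11.1-fold. Another 4 genes, Fech, Mpp1, Bpgm and Fam46c, carried outlier flags and were not counted. Their levels of 11.93, 12.71, 15.92 and 13.77 in blood compare with 7.02, 6.25, 7.39 and 4.29 in heart. The main globin probes thus differed by 1.85- to 5.74-fold between the arrays, whereas Hbq1b, Car2 and Alas2, dim in heart, differed by 277-fold or more.

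The promoter window of Alas2 (chrX:150547284-150547383, plus strand, GRCm38.p6), shown since this gene marks the red cell lineage, holds a match to AGATAA, a motif of the GATA factors, on its reverse strand, in capitals, 86 bases before the start. The same letters on either strand occur in 12.7% of all 27025 promoter windows. Windows were held for only 53.8% of the red cell genes, so no share was read for that group.
Alas2: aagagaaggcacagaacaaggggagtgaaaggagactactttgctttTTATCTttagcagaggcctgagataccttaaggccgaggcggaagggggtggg

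Platelet genes, lymphocyte genes and genes shared by white cells also lay mostly on the blood side, by smaller amounts. Of 10 platelet genes, 6 were higher in blood and none in heart (median −1.86 log2). Gp6, the collagen receptor, read 5.0 and 9.65 (25.2-fold), Mmrn1, a granule protein, 5.62 and 9.90 (19.5-fold), Alox12, the platelet lipoxygenase, 5.42 and 9.56 (17.7-fold) and Gp5, a subunit of the von Willebrand factor receptor, 9.34 and 12.70 (10.3-fold). Of 23 lymphocyte genes, 14 were higher in blood and 1 in heart (median −1.97), led by B cell genes. Cd79b, a signalling chain of the B cell receptor, read 4.73 and 10.34 (48.9-fold), and Cxcr5, a chemokine receptor of B cells, 4.82 and 9.03 (18.4-fold). Vpreb3, a B cell precursor protein, was detected in blood alone (at least 40.8-fold). The T cell receptor chains Cd3e and Cd247 were 3.43- and 5.05-fold higher in blood. Among 17 genes shared by white cells, 10 were higher in blood and none in heart (median −1.24), with Inpp5d, a phosphatase of immune signalling, at 6.2 and 9.58 (10.5-fold) the furthest.

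Neutrophil and monocyte genes were mixed. Of 23, 8 (34.8%) were higher in blood, against 37.4% of all genes, and 3 (13.0%) in heart, against 23.0%. Another 9 were detected in heart alone at levels too low to give a direction. Clec4d, a C-type lectin (20.4-fold), Ifitm6 (12.5-fold) and Cybb, the catalytic chain of the phagocyte oxidase (9.19-fold), were the furthest toward blood. S100a9, an abundant neutrophil protein, was 2.63-fold higher in blood, at 7.99 and 9.39. On the heart side lay Ly6c2 (15.56 and 9.95, 48.7-fold), which encodes a surface antigen of monocytes that endothelium also carries, Cx3cr1, the fractalkine receptor of resident macrophages (4.72-fold), and Mnda (3.02-fold). Stfa1 and Stfa2, near-identical stefins, and Ngp were detected in neither sample.

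Lists of other tissues (liver, lens and retina, skeletal muscle) also had members higher in blood, against which the leukocyte counts are to be read. Blood was drawn by removing the eye, and skeletal muscle shares genes with heart. The part of either in these counts was not tested. Of 15 hepatocyte genes 8 (53.3%) were higher in blood, of 12 lens and retina genes 6 (50%) and of 14 skeletal muscle genes 9 (64.3%, beside 3 higher in heart, Ckm, Eno3 and Tpm2), with medians of −1.70, −1.35 and −2.08 log2. The shares of lymphocyte and platelet genes were 60.9% and 60%, and that over all genes 37.4%. With the floor of the blood array on both, the counts higher in blood were 8 of 10 hepatocyte, 4 of 10 eye, 7 of 12 skeletal muscle, 14 of 18 lymphocyte and 6 of 10 platelet genes, and with normexp correction the count of eye genes was 3. The liver genes Hc (complement C5) and F7 (a clotting factor) read 4.56 and 8.71, and 5.13 and 9.11, the lens gene Bfsp1 5.43 and 9.91 and the muscle regulator gene Myf5 5.10 and 9.78. Their differences of −4.15, −3.98, −4.48 and −4.69 log2 are of the order of those of Gp6 (−4.65) and Cxcr5 (−4.20). Without that floor the red cell list had the higher share of 72.7%. With it the red cell share was 72.7% as well, below the 80.0% of hepatocyte and 77.8% of lymphocyte genes. Whether the lists differ was not tested.

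Endothelial and matrix genes, from the other cells of the heart wall, were mostly higher in heart. Of 16 endothelial genes, 9 (56.2%) were higher in heart and 3 in blood, with a median of 1.20 log2. Thbd, which encodes thrombomodulin, was at 11.86 and 5.65 (at least 67.7-fold), and Cav1, the caveolin of endothelium, at 14.11 and 9.32 (27.7-fold). Ctla2a, a protease inhibitor, and Darc, the chemokine receptor also borne by red cells, were 54.4- and 34.4-fold higher in blood, at 8.50 and 14.26, and 6.35 and 11.45. Pecam1, the adhesion molecule of endothelium, platelets and leukocytes, was near equal at 8.59 and 8.37.

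Of 25 genes of fibroblasts, mural cells and matrix, 15 (60%) were higher in heart and 4 in blood, with a median of 2.92 log2. Pcolce, an enhancer of procollagen processing, read 13.20 and 4.97 (at least 172-fold). Col4a2, a chain of basement membrane collagen, read 13.17 and 2.73 (at least 168-fold), Lum, which encodes lumican, 12.63 and 4.27 (at least 115-fold) and Acta2, the smooth muscle actin, 13.42 and 7.03 (83.6-fold). Serpinh1, the collagen chaperone, read 9.39 and 13.54 and was 17.7-fold higher in blood. Of 4 adipocyte genes held, Thrsp and Plin2 were at least 12.9- and 6.75-fold higher in heart and Adipoq, the hormone of fat cells, was 2.22-fold higher in blood.

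**Figure D2:**
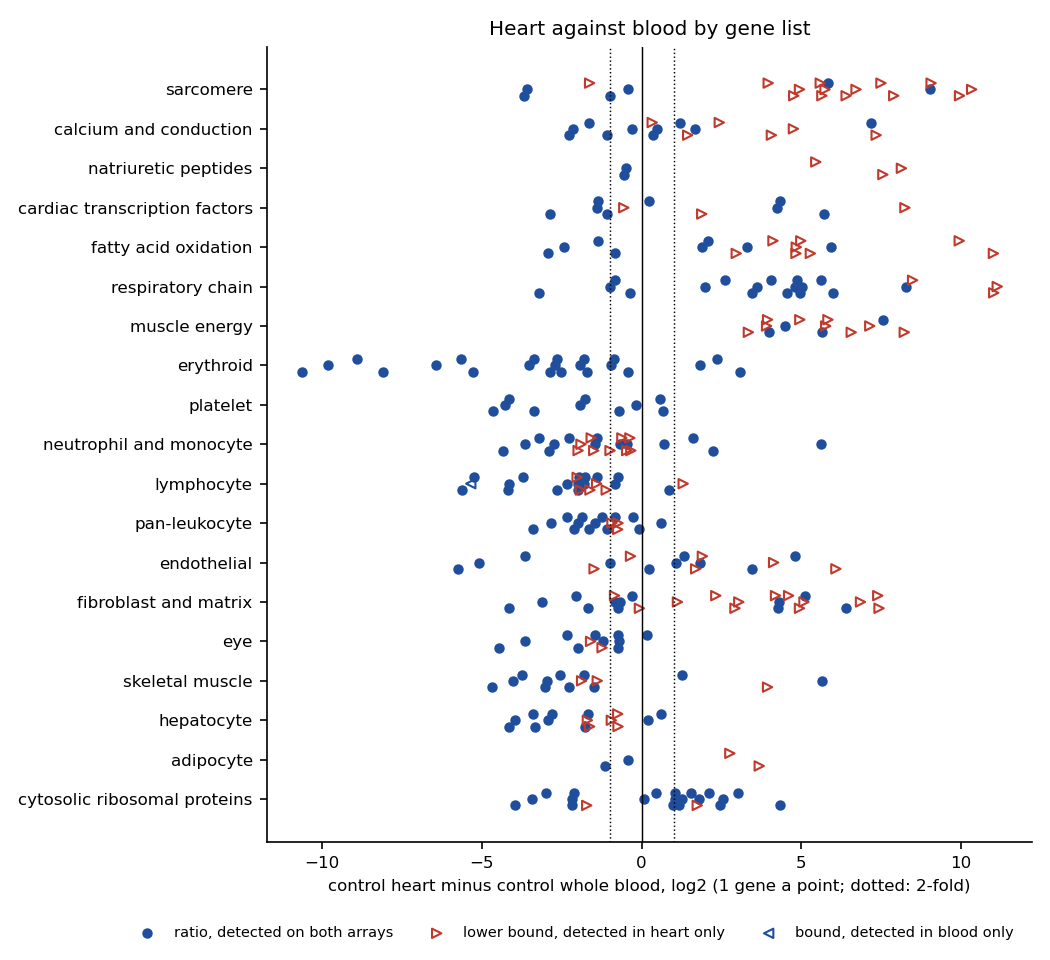
Control heart minus control whole blood on the log2 scale for each comparable gene of 19 lists, filled circles for genes detected on both arrays and open triangles for bounds, with dotted lines at 2-fold. Sarcomere, respiratory chain and muscle energy genes lie mostly to the right, erythroid genes lie mostly to the left, with Hbq1b at −9.81, and the eye, skeletal muscle and hepatocyte lists also spread to the left, as the lymphocyte and platelet lists do.

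Common reference genes differed between the tissues. Gapdh, a glycolytic enzyme often used to scale measurements, read 14.72 in control heart and 8.86 in control whole blood (58.1-fold higher in heart), and Actb, the cytoplasmic actin, 12.23 and 14.43 (4.60-fold higher in blood). Among 22 cytosolic ribosomal protein genes, 12 were higher in heart and 6 in blood (median 1.05 log2). Rpl22 (20.3-fold) was the furthest toward heart and Rpl17 (15.7-fold) and Rpl19 (10.9-fold) the furthest toward blood, while Rpl38 (16.02 and 15.95) differed by 0.07 log2 after quantile normalization and was 3.20-fold higher in blood with 75th percentile scaling. Of 429 genes with several comparable probes, 33 (7.69%) had probes on both sides, Tpm1, Eng, Cd44, Foxp3 and Rpl30 among those of the lists.

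Ranked by ratio over all mRNA probes detected on both arrays, the heart end held muscle and mitochondrial genes. After Acta1 and Slc25a4 came Jup, which encodes plakoglobin of the intercalated disc (13.72 and 5.98, 213-fold), Mdh1, Atp2a2, Tgm2, a transglutaminase (143-fold), Gstm2, a glutathione transferase (120.0-fold), Tpm1 with 2 probes and Tomm5, of the mitochondrial import pore (109-fold). At the blood end, beside Hbq1b, stood Cd24a, a surface glycoprotein of red cell and lymphocyte precursors (7.92 and 16.90, 505-fold), Car2 and Alas2 with 2 probes. Dusp8, a phosphatase of MAP kinases, followed (8.39 and 16.51, 279-fold), then Elf5, an epithelial transcription factor (5.87 and 13.49, 197-fold), Acsl6, an acyl-CoA synthetase (9.30 and 16.86, 188-fold), and Defa24, an intestinal defensin with close paralogs (3.93 and 10.96, 131-fold). The mRNA probes detected in blood alone numbered 19, against 1360 in heart alone. This count is not a result, since the list had been selected for presence and 98.2% of it was detected in control heart. Over all probes of the array, 1716 were detected in blood alone and 14528 in heart alone. Among the 19, the largest bounds were those of Cdr2 (at least 307-fold), Smok3a (at least 77.1-fold), Crxos1 (at least 59.4-fold) and Tg, which encodes thyroglobulin (at least 45.3-fold). Smok3a read 9.83 in control whole blood and 2.74 in control plasma on the same slide, 2.53 in HF whole blood and 11.62 in HF heart, and it belongs to a family of near-identical kinases.

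Levels on the other 4 arrays showed which of these differences held across the series. In HF heart, Actc1 read 16.07, Tnni3 14.90, Nppa 16.65 and Cox8b 16.60, against 15.73, 14.84, 13.91 and 16.91 in control heart. Control plasma was low for the same genes, with 3.17 for Actc1 and 2.52 for Tnni3, neither detected. HF whole blood, which lay on the slide of control heart, read 12.99, 12.31, 15.52 and 13.74. Actc1 was thus 2.73 log2 and Tnni3 2.53 log2 higher in control heart than in HF whole blood, whereas Nppa at 15.52 exceeded its level in control heart. Alas2, by its brighter probe, read 7.29 in HF heart, 11.97 in HF blood and 13.81 in control plasma, and was not detected in HF plasma. Alas2 was thus near as bright in control plasma as in control whole blood, and Hba-a1 was at 17.53 and 13.49 in control and HF plasma.

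**Figure D3:**
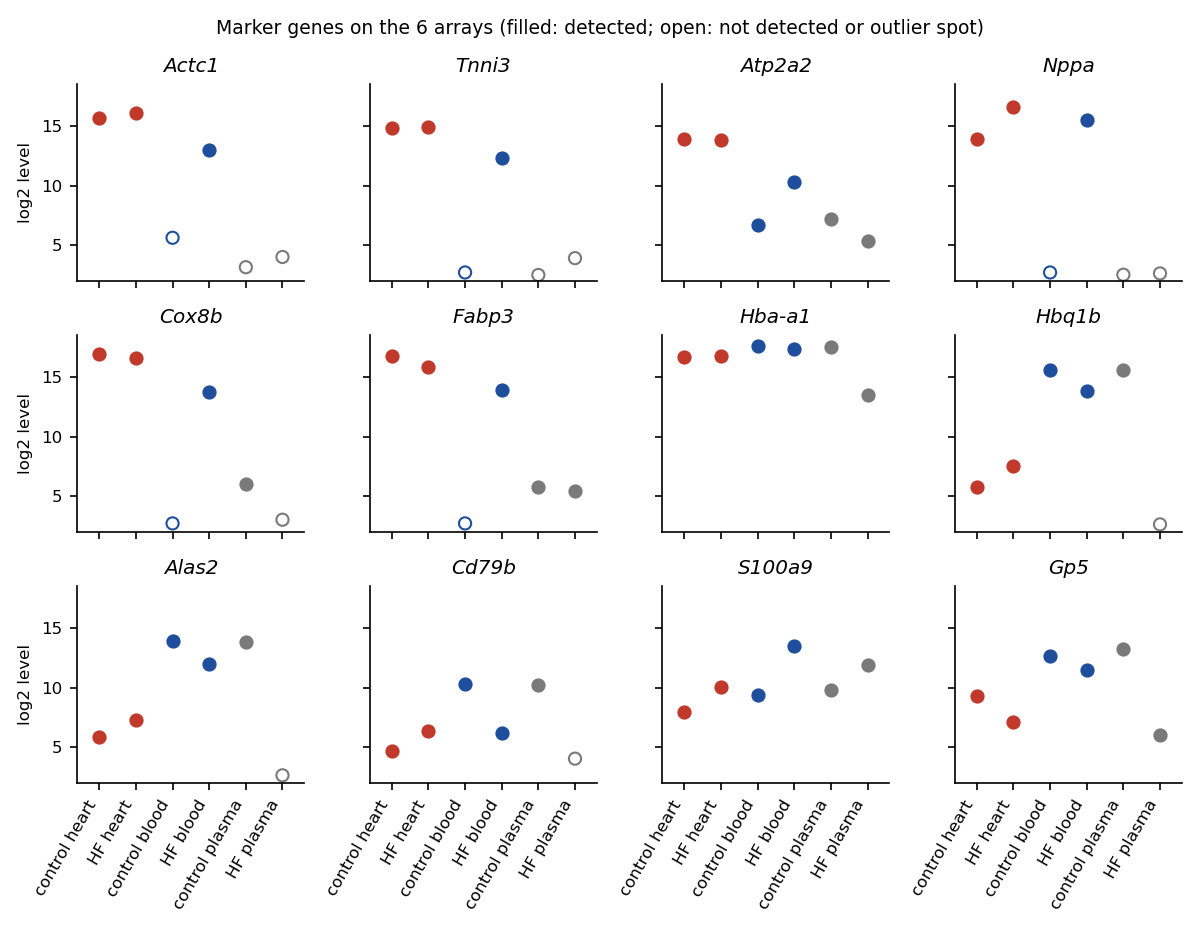
Log2 level of 12 genes on the 6 arrays, 1 point an array, filled where detected and open where not detected or flagged. The heart genes of the first 6 panels are high in both hearts and in HF whole blood, and low in control whole blood and both plasmas, while Hbq1b, Alas2 and Cd79b are highest in control whole blood and control plasma.

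Named LncRNA probes leaned further toward blood than mRNA probes. Of 7536 probes named by their LncRNA, 2367 (31.4%) were detected in control heart and 1428 (18.9%) in control whole blood, 1208 of them on both. Among 2559 comparable probes, 243 (9.50%) were higher in heart and 1050 (41.0%) in blood, against 21.6% and 37.1% of mRNA probes. Where detected on both arrays, the median difference was −1.85 log2 and the median size of a difference 2.07, against −1.36 and 1.89 for mRNA probes. Another 2706 LncRNA probes that the array names only by number, and that the study had selected for presence as it had the mRNA probes, gave 20.5% and 37.3% of 2596, close to the mRNA shares. The selection for presence therefore moved together with the share higher in heart, and its part in the difference between LncRNA and mRNA was not tested. With the blood array's floor applied to both, 243 named LncRNA probes were higher in heart and 763 in blood.

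The classes of LncRNA differed in their share on the heart side. LincRNAs known by a transcript accession reached 15.7% and those of the MM9LINCRNAEXON series, drawn from exons of intergenic transcripts, 143 of 1430. Mouse and human lincRNA series placed on the mouse genome (mouselincRNA and humanlincRNA) had 2.33% and 1.68%, which are 4 of 172 and 5 of 298 probes. Ultraconserved regions (uc. names, transcripts of stretches kept identical between mammals) had 26 of 246 (10.6%) higher in heart and 95 (38.6%) in blood. The share higher in blood ran from 36.6% for accession-named lincRNAs to 48.3% for the human series.

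Level mattered to the lean. Among probes with a mean level under 6 on both arrays, none were higher in heart. Of these, 77.8% of 442 mRNA and 82.1% of 251 LncRNA probes were higher in blood. The detection floors of 5.78 in blood and 3.56 in heart fix the heart share there and favour the blood share, so neither is a result. The class from 6 to 8 is cut in part by the same floors. Between 8 and 10, 28.0% of 668 mRNA probes and 17.1% of 252 LncRNA probes were higher in heart, and 48.5% and 63.9% in blood. At 12 and above, the shares in heart were 23.9% of 155 mRNA and 16.7% of 84 LncRNA probes, and 45.2% and 58.3% in blood. Over all probes of the array the shares at 12 and above were 35.8% in heart and 34.8% in blood, and between 10 and 12 they were 40.1% and 40.7%. In each of the 4 level classes from 6 up, named LncRNA probes had the lower share in heart and the higher in blood than mRNA probes. The LncRNA probes known only by number, whose shares were close to those of mRNA, were not split by level.

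**Figure D4:**
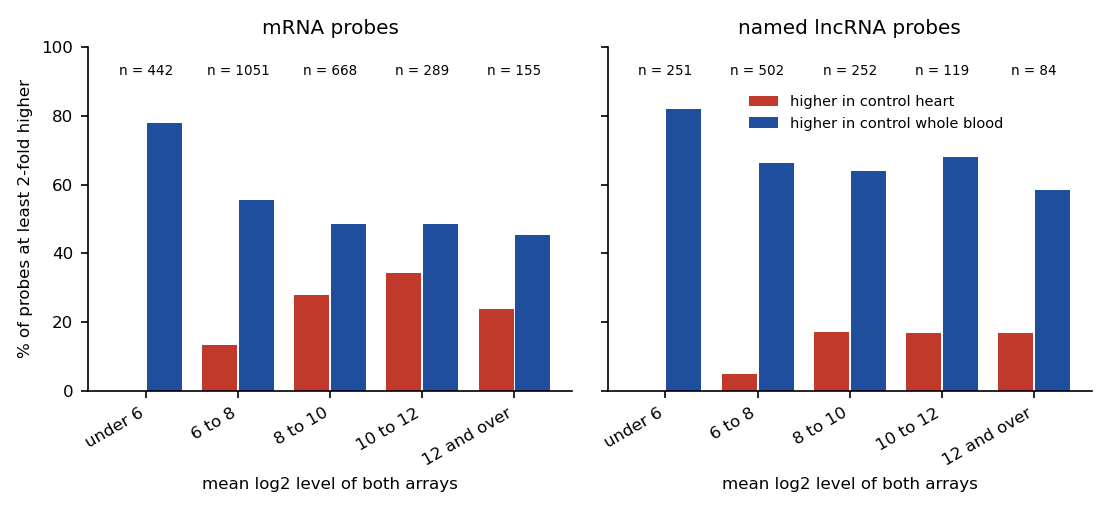
Percent of mRNA probes (left) and named LncRNA probes (right) detected on both arrays that were at least 2-fold higher in control heart or control whole blood, by mean log2 level of both arrays, with the number of probes above each pair of bars. Named LncRNA probes have a smaller heart share than mRNA probes in every level class from 6 up. The heart bars under 6 are at 0, which the detection floor of the blood array fixes.

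The LncRNAs with the largest ratios reached the size of those of marker mRNAs. AV319250 read 15.00 in control heart and 7.64 in control whole blood (165-fold), with 14.47 in HF heart, 11.20 in HF blood and plasma levels of 7.49 (control) and 4.49 (HF). MM9LINCRNAEXON11837- (16.54 and 9.76, 109.5-fold), BY473064 (chr5:149268597-149269014, plus strand, build mm9, 13.49 and 7.14, 81.7-fold), BB306094 (66.0-fold) and MM9LINCRNAEXON10196- (65.7-fold) followed. All 5 were also brighter in HF heart than in every blood and plasma array. The largest bounds belonged to mouselincRNA0077+ (12.24, at least 88.5-fold), MM9LINCRNAEXON11297+ (chr16:43641792-43642301, at least 40.6-fold) and MM9LINCRNAEXON11028- (at least 39.1-fold).

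Toward blood stood DV653685 (8.02 and 15.50, 178-fold), CA885545 (chr2:13765179-13765539, minus strand, 4.84 and 12.30, 176-fold) and AK030313 (4.66 and 11.47, 112-fold). They were joined by 2 ultraconserved transcripts, uc.308- (6.87 and 14.25, 166-fold) and uc.256+ (chr4:90919611-90919816, 4.90 and 12.13, 151-fold). DV653685 read 15.50 in HF whole blood, as in control whole blood. MM9LINCRNAEXON11592+ (chr13:78343047-78343263) was detected in control whole blood alone of the 6 arrays, at 10.24, with 2.66 in control plasma on the same slide, and it had a bound of at least 103-fold. humanlincRNA1963- (chr10:19126835-19156960, at least 101-fold) and MM9LINCRNAEXON10713- (chr4:118740653-118741128, at least 54.0-fold) were detected as well on the HF whole blood and control plasma arrays.

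LncRNA loci probed on both strands offered a comparison of opposite transcripts of the same place. Of 3157 such loci, 422 had a comparable probe on both strands. Both strands lay on the same side at 111 loci (105 toward blood, 6 toward heart) and on opposite sides at 20. At 191 loci only 1 strand passed 2-fold and at 100 neither did. These counts are to be read against the shares over all 2559 comparable named LncRNA probes, 9.50% higher in heart and 41.0% in blood. Whether the strands of a locus differ from what those shares alone would give was not tested. Over the 114 loci with a ratio on both strands, the 2 differences had Pearson r = 0.11, a description across loci of the same pair of arrays. The gaps that follow each join a ratio and a bound and are therefore the least they can be. mouselincRNA0077 had a gap of at least 10.16 log2, its plus strand at 12.24 in heart and undetected in blood (5.11), its minus strand at 5.66 and 9.36. MM9LINCRNAEXON10626 (plus strand probe at chr5:141234389-141235418) read 3.60 and 6.52 on the plus strand and 13.39 and 7.38 on the minus strand, a gap of at least 8.94. MM9LINCRNAEXON11201 (chr17:17659848-17662511) read 8.28 and 11.88 on the plus strand and 9.50 and 5.10 on the minus strand, a gap of at least 7.32. At the first of them the plus strand lay toward heart, and at the other two the minus strand did.

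**Figure D5:**
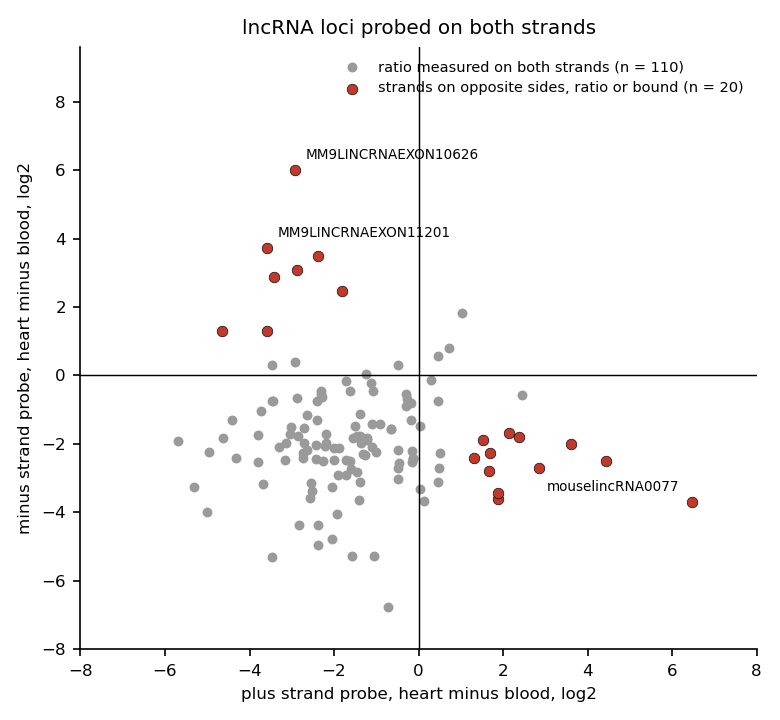
Control heart minus control whole blood (log2) for the plus strand probe (horizontal axis) and the minus strand probe (vertical axis) of LncRNA loci, grey where both strands have a ratio and red where they pass 2-fold on opposite sides by ratio or bound. Most of the grey points lie in the lower left, higher in blood on both strands, and 20 red points lie in the upper left and lower right.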

How the data were processed

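RNA of saline-treated control mice and of isoproterenol-treated mice was measured by the authors on 1-colour arrays (Arraystar Mouse LncRNA Microarray, design build mm9), 1 array for each of heart, whole blood and plasma in each arm. The authors removed ribosomal RNA, labelled random-primed cRNA with Cy3 and scanned with Agilent Feature Extraction 11.0.1.1. The deposited files hold spot intensity after the software's background and spatial correction, with its error and its flags, and no count of molecules. Precision is limited by the number of arrays, by the spot error and by the detection floor. The authors' own table of processed values was not used.

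The deposited intensities (gProcessedSignal) were averaged for each probe, without control spots, turned into log2 and quantile normalized over the 6 arrays (Python 3.11.15, numpy 2.4.6, pandas 2.3.3). Spatial detrending was present on control heart (ratio 0.894 to 1.24) and absent on control whole blood (1.00). Negative control spots set above background were 2.33% in control heart and 2.92% in control whole blood. A probe was comparable if detected on at least 1 of the 2 arrays with no outlier flag, and higher at 2-fold or a bound of 2-fold, the threshold of the study. The bound took the higher of the other array's lowest detected level and the probe's own level there. No test was made, since the 2 groups have 1 array each. On simulated arrays with 200 probes changed 4-fold among 59729, 100% were recovered, none on the wrong side, and 0.358% of unchanged probes were called. Both simulated arrays were drawn from control heart with a shared floor and the scanner error alone, and the changed probes lay well above that floor. Recovery was therefore near certain, and these shares check the procedure only. They do not give the accuracy for the real pair, whose floors and spatial correction differ.

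mRNA probes (4093, of 3462 gene symbols) were taken by probe name from the study's list as far as it was held, without symbols turned into dates. A gene with several probes was given by the comparable one with the highest mean level over both arrays. The comparison, the 19 gene lists (374 genes, 318 held, 302 comparable) and the markers were chosen with earlier results of these data known. Named are the 4 markers, the 4 largest and 2 smallest differences of a list, the 10 largest mRNA ratios and 5 largest bounds to each side (5 and 3 for LncRNAs), Gapdh, Actb and 3 loci with opposite strands. Other list members were named after their values were seen, and some items are not reported here. LncRNA coordinates are those of the files (mm9, held for 6430 probes), counted from 1. Promoter windows came from RefSeq. Alternatives covered scaling, background correction (normexp of limma 3.58.1 in R 4.3.3 on median spot signals, offset 50), detection, fold, the probe rule and the arrays compared. A common floor, undetrended signals and control plasma in place of whole blood were added after seeing the data.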

Additional observations from a re-analysis of the deposited data

Results flagged for a closer look

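Heart muscle genes were bright on the HF whole blood array, which the comparison of control heart with control whole blood does not use, and were not detected on the control whole blood array. Actc1 read 12.99 on HF whole blood against 5.64 on control whole blood, at least 7.22 log2 higher. Tnni3 read 12.31 against 2.73, at least 6.54 log2 higher. Nppa read 15.52 against 2.73, at least 9.74 log2 higher. Of 20 sarcomere genes, 14 were at least 2-fold higher on HF whole blood than on control whole blood and 1 was lower, and 19 were detected there against 6. HF whole blood shared a slide with both hearts, and control whole blood did not. The parts of the slide, of heart RNA carried over and of an exchange of samples in these values were not tested.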

How the results depend on the processing

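Each of 12 main results was recomputed under every alternative that applied, and no single difference changed sign. The balance of mRNA probes turned from blood toward heart at the 16-fold threshold. Of the recomputed values, 102 stayed within 1.5-fold (counts), the scanner error (differences) or the 95% binomial interval (the share of LncRNA probes past the threshold, 50.5%), and 36 did not. At a 16-fold threshold 212 mRNA probes were higher in heart and 202 in blood, 35 and 131 named LncRNA probes, 70 and 23 list genes, 6.49% of comparable LncRNA probes passed and 0 loci had opposite strands. At 4-fold, 942 mRNA probes were higher in blood and 146 LncRNA probes in heart, 36.4% of LncRNA probes passed and 9 loci were opposite. At 1.5-fold, 56.7% of LncRNA probes passed. The main counts were 861 and 1480 mRNA probes, 243 and 1050 LncRNA probes, 118 and 106 list genes and 20 loci. Without a detection filter 822 LncRNA probes were higher in heart and 1967 in blood (37.0% of all), with 135 opposite loci. Scaling to the 75th percentile gave Actc1 9.26 and Hba-a1 −3.28. Normexp background gave Actc1 8.69, Atp2a2 10.48 and Hba-a1 −0.67, 36.6% of LncRNA probes and 13 loci. With HF whole blood, on the slide of control heart, Actc1 was 2.73, Tnni3 2.53, Atp2a2 2.65 and Hba-a1 −0.65. With HF heart in place of control heart 74.1% of LncRNA probes passed. With control plasma in place of whole blood Actc1 was 11.09 and Atp2a2 6.66, with 61.5% of LncRNA probes and 35 loci. The common floor gave 59.7% and 13 loci. The mean of all probes gave Atp2a2 8.99. Causes were not tested, beyond the thresholds and filters that set how many probes enter. The median over all probes detected on both arrays was −1.13 log2, and −0.60 with normexp, −0.41 with HF whole blood, −0.75 with control plasma and −0.26 with the common floor.

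No paired analysis was possible because the labels give no replicate numbers and each group has 1 array, and a fit of tissue and arm over all arrays was not run. The pool of mice, the slide and the array cannot be told apart from the tissue. Levels under 5.78 in control whole blood are not measured, and small differences near that floor have no direction.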
